A study of Homo sapiens with 6 samples.

Results

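The genes described here are the matricellular genes THBS1, CCN2 (formerly CTGF) and CCN1 (formerly CYR61), the YAP-responsive genes ANKRD1, AMOTL2 and AXL, and YAP1 itself, in MB157 cells after CRISPR targeting of SOX9. The members were 9 listed entries of the count tables and 2 further entries with exon overlap on the strand opposite a listed gene, 11 of 57209 entries in all. MB157 is an established line of human breast cancer cells that lack hormone receptors and HER2, and the titles of all 6 libraries name the cells as MB157 with the Cas9 nuclease. The 3 SOX9 sgRNA libraries came from cells given a guide against the transcription factor gene SOX9, and the 3 control sgRNA libraries from cells given a control guide. Cells of both groups were taken after 4 days and sorted for the top 50% by sgRNA expression. The series text describes the cells as stably expressing SOX9, which the titles do not mention, and no source used here says whether the line is 1 clone. The labels call the replicates technical, so p-values measure the spread between these libraries only.

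Matricellular proteins are secreted into the extracellular matrix and act on cell adhesion and signalling rather than as structural scaffold. YAP1 and its relative WWTR1 (TAZ) are coactivators that enter the nucleus when the kinases of the Hippo pathway are inactive, bind the TEAD transcription factors there, and switch on genes such as CCN1, CCN2, ANKRD1, AXL and AMOTL2. Thrombospondin 1, the product of THBS1, binds the receptors CD36 and CD47 and activates latent TGF-beta. In breast cancer cells YAP activity is known for its links to adhesion, spreading and drug tolerance.

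TEAD factors recognise the letters GGAATG, or CATTCC on the other strand. The promoters of THBS1, CCN2 and YAP1, the loci with a tested entry on each strand, are shown for this motif, with each match in capitals. They are the 250 bases before the RefSeq start on build GRCh38.p14, a build other than that of the counts, read 5′ to 3′ on the gene's strand. The positions are chr15:39580829-39581078 on the plus strand for THBS1, chr6:131951373-131951622 on the minus strand for CCN2 and chr11:102110197-102110446 on the plus strand for YAP1.
THBS1: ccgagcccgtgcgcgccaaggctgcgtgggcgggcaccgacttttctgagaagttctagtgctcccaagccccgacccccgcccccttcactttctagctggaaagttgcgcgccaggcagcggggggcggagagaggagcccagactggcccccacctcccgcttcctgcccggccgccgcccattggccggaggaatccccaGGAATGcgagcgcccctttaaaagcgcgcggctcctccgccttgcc
CCN2: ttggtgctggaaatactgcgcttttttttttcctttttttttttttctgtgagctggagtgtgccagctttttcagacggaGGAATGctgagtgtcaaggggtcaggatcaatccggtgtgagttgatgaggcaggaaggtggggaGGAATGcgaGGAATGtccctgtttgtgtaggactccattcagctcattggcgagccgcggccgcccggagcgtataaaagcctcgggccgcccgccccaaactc
YAP1: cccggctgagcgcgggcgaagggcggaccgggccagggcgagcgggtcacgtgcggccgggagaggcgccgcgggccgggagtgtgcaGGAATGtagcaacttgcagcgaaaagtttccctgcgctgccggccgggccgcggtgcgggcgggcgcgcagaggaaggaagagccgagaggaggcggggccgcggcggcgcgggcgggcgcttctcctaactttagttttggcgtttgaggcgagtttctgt

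The THBS1 promoter held 1 match, which began 46 bases before the start. The CCN2 promoter held 3, which began 169, 104 and 95 bases before it, and the YAP1 promoter held 1, at 162 bases. ANKRD1 held 2 matches, AMOTL2 held 1 at 1 of its 2 listed starts and AXL likewise 1 at 1 of 2. CCN1 was not searched. Among the 35116 promoters of the table, 11.9% held at least 1 match, 0.94% at least 2 and 0.0826% at least 3. Of the SOX-type letters ACAATG, or CATTGT, none of the 8 starts of these genes held a match, against 9.29% of all promoters. The letters ACAAAG, or CTTTGT, matched at 1 AXL start, against 13.7% of all promoters. These matches describe the sequence and show nothing about binding.

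The counts of reads per gene came to 829738, 776125 and 1018854 per library with the SOX9 sgRNA and to 841592, 881655 and 777960 with the control sgRNA. SOX9 itself had 37, 39 and 60 counts with the SOX9 sgRNA, against 38, 52 and 44 with the control sgRNA, or -0.22 as a log2 fold change by edgeR (SE 0.26, adjusted p = 0.70). These counts do not show whether SOX9 protein was lost, and its loss was not tested. The strand limit given below for own entries applies to SOX9 too. All 8 epithelial markers had counts, with a summed level of 913 to 1103 CPM with the SOX9 sgRNA and 1081 to 1157 CPM in control libraries. The 4 entries opposite such markers summed to 2703 to 2897 CPM with the SOX9 sgRNA and to 3775 to 3858 CPM in control libraries, groups that did not overlap and of which the SOX9 sgRNA group was the lower, as in the entries opposite THBS1 and CCN2. The summed immune markers stood at 47.7 to 70.2 CPM, against 24.1 to 41.7 CPM, with CD3E and LYZ at 0. These groups did not overlap either, and the SOX9 sgRNA group was the higher. Of all single entries tested, 12.8% lay wholly lower and 11.7% wholly higher. The receptor genes ESR1, PGR and ERBB2 all had counts and summed to 191.5 to 227.4 CPM, against 193.6 to 241.3 CPM. Basal markers summed to 165.1 to 185.5 CPM, against 157.5 to 178.3 CPM, with TP63 at 0. The endothelial markers CDH5 and VWF were at 0. Fibroblast markers summed to 3.89 to 10.8 CPM, against 2.67 to 5.75 CPM. The part of these markers in the results was not tested, and in bulk RNA fewer cells of a type and less RNA per cell cannot be told apart.

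An entry of the tables counts only fragments whose strand, read under the strand setting 1 of the file headers, matches that of the entry. Of the 7 genes, THBS1, CCN2, YAP1 and AXL had an entry with exons on the other strand, called opposite here. CCN1, ANKRD1 and AMOTL2 had none. ENSG00000259279 (chromosome 15, 39885781 to 39886432, minus strand, GRCh37) lay opposite THBS1 (39873280 to 39891667, plus strand). All 281 of its exon bases fell in the THBS1 exon block from 39885598 to 39886641, the block 19 of 20 from the 5′ end. ENSG00000227220 (chromosome 6, 132272086 to 132398533, plus strand) shared 195 of its 495 exon bases with CCN2 (132269316 to 132272513, minus strand), 148 in the first CCN2 exon and 47 in the next. ENSG00000254422 (chromosome 11, 102100582 to 102101653, minus strand) lay with all its 628 bases in the last exon block of YAP1 (101981192 to 102104154, plus strand). ENSG00000269652 (chromosome 19, 41727331 to 41727956, minus strand) shared 67 of 286 bases with AXL (41725108 to 41767671, plus strand). GENCODE release 29 lists the last 3 as antisense transcripts.

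**Figure D1:**
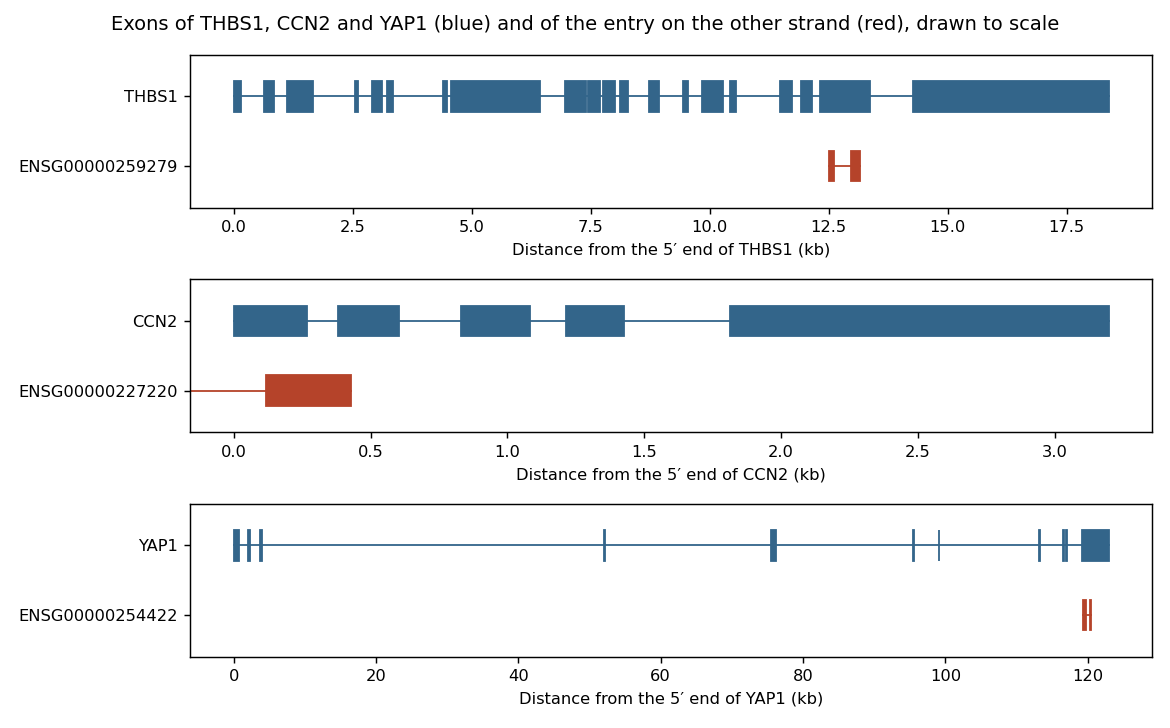
Exon blocks of THBS1, CCN2 and YAP1 (blue) and of the entry on the other strand (red), against the distance in kb from the 5′ end of the gene. The red exons share 281 bases with THBS1 near its 3′ end, 195 bases with CCN2 at its 5′ end and 628 bases with the last YAP1 block; the second exon of ENSG00000227220 lies outside the CCN2 panel.

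At the THBS1, CCN2 and YAP1 loci the short opposite entry held most of the counts, and at the AXL locus, with 10 own and 3 opposite counts, it held 23.1%. Over the 6 libraries ENSG00000259279 had 1747 counts and THBS1 343, so that 83.6% of the counts lay in the opposite entry. ENSG00000227220 had 598 and CCN2 57 (91.3%), and ENSG00000254422 had 1546 and YAP1 67 (95.9%). Per kb of exon the opposite entry had 197 times the counts of THBS1, 49.6 times those of CCN2 and 231 times those of YAP1. This was the common pattern of the tables. It was seen among 1275 protein-coding genes with a single opposite entry not listed as protein-coding, and at least 50 counts over both entries. Of these genes, 1093 (85.7%) had more counts per kb in the opposite entry, with a median ratio of 30.8. The THBS1 ratio exceeded that of 84.1% of these pairs, the CCN2 ratio 57.6% and the YAP1 ratio 86.5%. Whether the counts of an opposite entry come from transcripts of that entry or of the gene it overlaps cannot be told apart from these tables. The kit may give first reads of the strand opposite the RNA, and no source used here says which strand setting it needs. If so, under strand setting 1 an opposite entry would hold the gene's own reads, and the own entries, calls and missing calls alike, would not measure the gene. All values are therefore given by entry, and this reading of the strand was not tested.

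THBS1 encodes thrombospondin 1, a trimeric glycoprotein of platelets, stroma and many tumour cells. Its own entry had 30, 33 and 29 counts in SOX9 sgRNA libraries 1 to 3, against 60, 94 and 97 counts in control libraries 1 to 3. Every SOX9 sgRNA library lay below every control library. The mean level was 35.8 ± 7.34 CPM with the SOX9 sgRNA and 113 ± 30.2 CPM with the control sgRNA (SD, n = 3 each), where CPM is the count relative to the library's TMM-scaled total. With the SOX9 sgRNA, the own THBS1 entry fell by 1.67 on the log2 scale (SE 0.25, edgeR adjusted p = 3.77e-07), to 0.314 times the control level. Of all 7959 entries tested, 9.01% were past the adjusted threshold of 0.05, 6.02% as lower and 2.99% as higher.

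The entry opposite THBS1, ENSG00000259279, had 125, 125 and 185 counts with the SOX9 sgRNA, against 442, 455 and 415 counts with the control sgRNA. The libraries within each group were close and the groups lay far apart. Its level was 164 ± 14.9 CPM, against 588 ± 9.59 CPM in controls (SD, n = 3 each). It fell by 1.83 on the log2 scale (SE 0.11, 95% interval -2.06 to -1.61, edgeR adjusted p = 5.09e-22), to 0.281 times the control level, and stood at place 9 of the 7959 entries by p. Of the 3871 tested entries opposite a protein-coding gene, 12.7% were past the threshold, 9.02% as lower and 3.69% as higher. Both strands of the THBS1 locus thus had lower counts with the SOX9 sgRNA, and summed into 1 entry they gave -1.81 (edgeR adjusted p = 4.55e-23).

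CCN2 encodes connective tissue growth factor, a secreted cysteine-rich protein that binds integrins and growth factors and is a standard readout of YAP activity. Its own entry had 11, 10 and 5 counts with the SOX9 sgRNA, against 8, 14 and 9 counts with the control sgRNA. The groups overlapped. The fitted difference on the log2 scale was -0.45 (SE 0.58, edgeR adjusted p = 0.738), with a 95% interval from -1.58 to 0.69 that holds both 0 and the value of the opposite entry. The entry opposite CCN2, ENSG00000227220, had 39, 60 and 75 counts with the SOX9 sgRNA, against 167, 141 and 116 counts with the control sgRNA. Every SOX9 sgRNA library lay below every control library. Its level was 66.0 ± 16.7 CPM, against 190 ± 29.5 CPM in controls, and it fell by 1.52 (SE 0.19, edgeR adjusted p = 2.23e-09), to 0.349 times the control level. Summed into 1 entry, the CCN2 locus gave -1.42 (edgeR adjusted p = 3.29e-09).

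CCN1, a CCN family member of the same modular build as CCN2 and likewise an immediate YAP and serum target, could not be tested. It had 0, 4 and 1 counts with the SOX9 sgRNA, against 5, 5 and 2 counts with the control sgRNA, and no entry opposite it. The ratio of the summed counts, 5 against 12, was 0.354 after scaling, with an exact 95% counting interval from 0.0977 to 1.08. A change was not detectable in so few counts, and the interval covers counting error only. Fragments read as the other strand at CCN1, and likewise at ANKRD1, had no entry to count them. The strand limit given above applies here too. The other member genes with few counts gave the same picture. ANKRD1, a nuclear ankyrin-repeat protein gene, had 3, 1 and 2 counts with the SOX9 sgRNA, against 2, 4 and 3 counts in controls, a ratio of 0.566 (0.166 to 1.78).

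AXL, a receptor tyrosine kinase of the TAM family whose ligand is GAS6, had 2, 2 and 3 counts with the SOX9 sgRNA, against 2, 0 and 1 counts with the control sgRNA, a ratio of 1.98 (0.453 to 11.9). Its opposite entry, ENSG00000269652, had 3 counts in SOX9 sgRNA library 3 and 0 in each of the other libraries. AXL, CCN1, ANKRD1 and ENSG00000269652 were the 4 member entries that did not pass the filter on low counts.

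YAP1, the coactivator itself, had 11, 6 and 12 counts with the SOX9 sgRNA, against 14, 10 and 14 counts with the control sgRNA. The groups overlapped, and edgeR gave -0.63 on the log2 scale (SE 0.52, adjusted p = 0.539). The entry opposite YAP1, ENSG00000254422, had 275, 227 and 332 counts with the SOX9 sgRNA, against 201, 294 and 217 counts with the control sgRNA. Its level was 317 ± 19.0 CPM with the SOX9 sgRNA and 318 ± 52.7 CPM with the control sgRNA, in overlapping groups. On the log2 scale edgeR gave -0.01 (SE 0.12, adjusted p = 0.986), with a 95% interval from -0.24 to 0.23 that does not reach the falls opposite THBS1 and CCN2. Summed into 1 entry, the YAP1 locus gave -0.03 (edgeR adjusted p = 0.922).

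AMOTL2, a member of the angiomotin family that binds YAP and holds it in the cytoplasm and is itself a YAP target, had 112, 74 and 110 counts with the SOX9 sgRNA, against 69, 77 and 46 counts with the control sgRNA. SOX9 sgRNA libraries 1 and 3 lay above every control library in CPM and library 2 did not. Its level was 112.7 ± 19.96 CPM, against 85.3 ± 16.9 CPM in controls, and edgeR gave 0.40 on the log2 scale (SE 0.20, adjusted p = 0.251). Scaled by library totals alone the value was 0.58 (edgeR adjusted p = 0.0478), under a scaling that moved the median of all tested entries to 0.19, against 0.01 with TMM. AMOTL2 shares 187 exon bases on its own strand with RPL39P5, a ribosomal protein pseudogene with 4 counts in all.

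**Figure D2:**
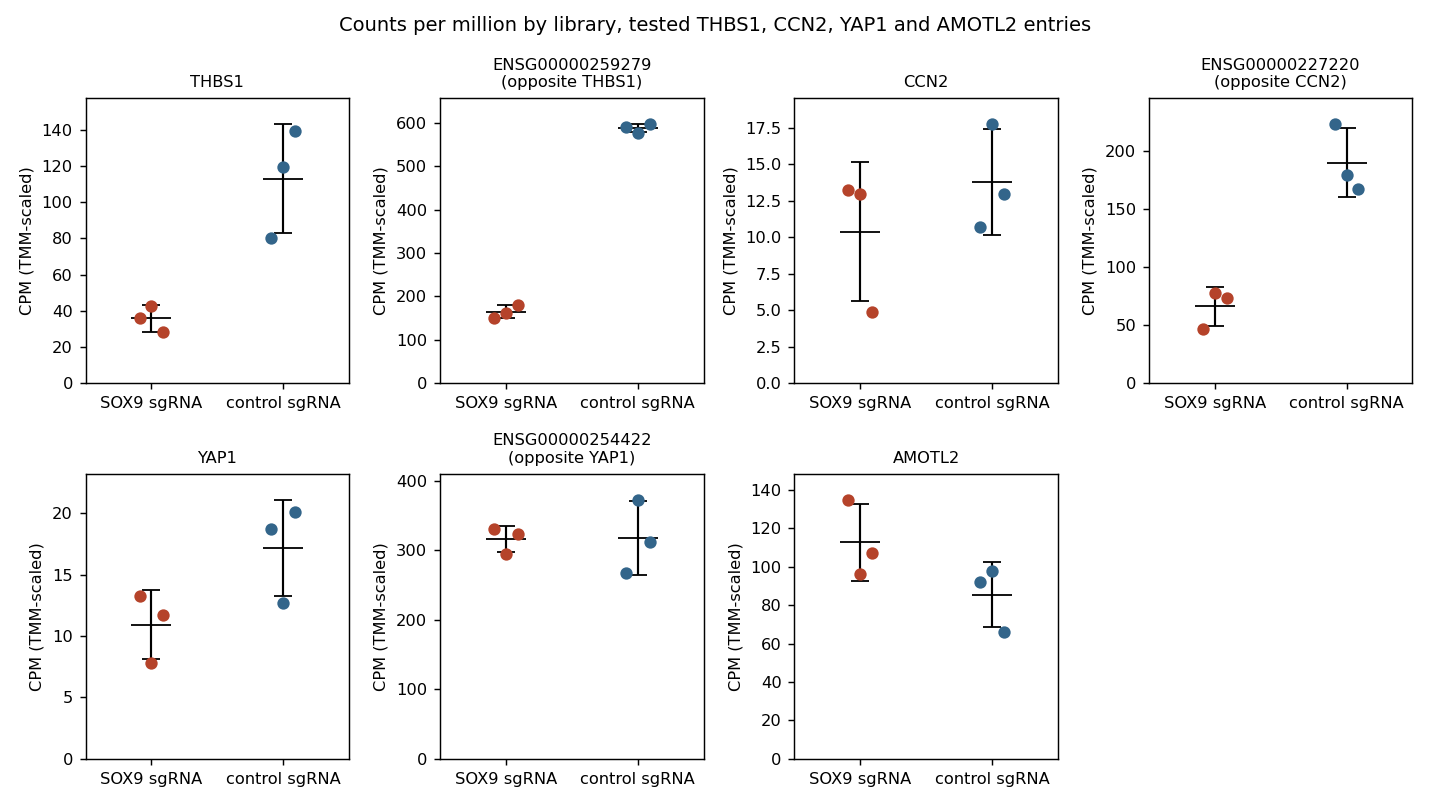
TMM-scaled CPM of the 7 tested entries in each library (points), with the group mean and SD (n = 3 each), SOX9 sgRNA left of control sgRNA. The groups do not overlap for THBS1, ENSG00000259279 and ENSG00000227220, and overlap for CCN2, YAP1, ENSG00000254422 and AMOTL2.

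Of the 11 member entries 7 were tested, of which 3 fell and 0 rose by edgeR, with 0 higher at an unadjusted p under 0.05 and 0 by DESeq2. The 4 others were not past the threshold. Of all entries tested, 6.02% were lower and 2.99% higher, and of those opposite a protein-coding gene 9.02% were lower and 3.69% higher. The members were chosen with earlier results of these data known, so their count is no result about the family. The entries that fell were THBS1 and the entries opposite THBS1 and CCN2, of which THBS1 and its opposite entry share a locus. The same 3 had SOX9 sgRNA libraries that all lay below the control libraries, as did 12.8% of all entries tested. In the 3 entries that fell, the value kept its call in each of 12 alternative fits, with a log2 fold change of -1.92 to -1.65 for ENSG00000259279, -1.65 to -1.34 for ENSG00000227220 and -1.88 to -1.49 for THBS1.

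**Figure D3:**
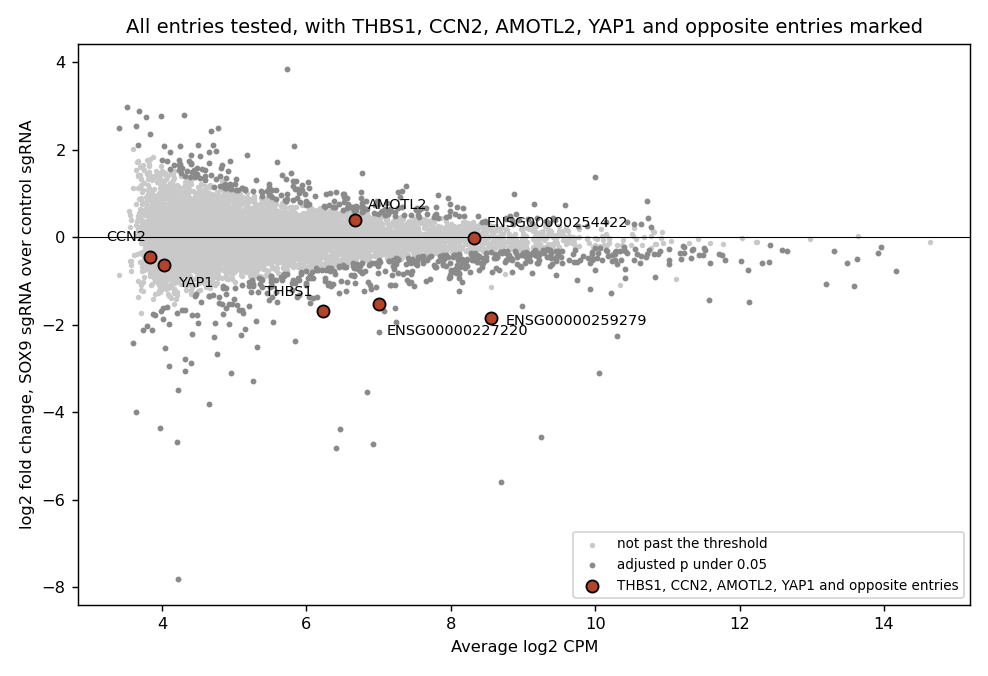
log2 fold change (SOX9 sgRNA over control sgRNA) against average log2 CPM for the 7959 entries tested, with the THBS1, CCN2, AMOTL2 and YAP1 entries and those opposite them in red. THBS1 (-1.67), ENSG00000259279 (-1.83) and ENSG00000227220 (-1.52) lie below most entries of like level, and ENSG00000254422 (-0.01) on the zero line.

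Levels per kb of exon set the members in order. In control libraries ENSG00000259279 stood highest at 2093 ± 34.1 CPM per kb, then ENSG00000254422 at 506 ± 84.0 and ENSG00000227220 at 383 ± 59.7. The own entries followed far below, with AMOTL2 at 14.3 ± 2.82 CPM per kb, THBS1 at 10.4 ± 2.78, CCN2 at 5.90 ± 1.55, YAP1 at 2.73 ± 0.626, CCN1 at 2.16 ± 0.858, ANKRD1 at 2.03 ± 0.622 and AXL at 0.266 ± 0.259 (SD, n = 3 each). AMOTL2 and THBS1 did not differ beyond their spread, nor did YAP1, CCN1 and ANKRD1. With the SOX9 sgRNA, ENSG00000259279 stood at 585 ± 52.9 CPM per kb and ENSG00000254422 at 504 ± 30.3. ENSG00000227220 stood at 133 ± 33.7, AMOTL2 at 18.8 ± 3.34 and THBS1 at 3.29 ± 0.675. These orders are a description, with no test between genes.

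The ratio of 2 entries within a library needs no scaling factor. The log2 ratio of the opposite to the own THBS1 entry was 2.20 ± 0.40 with the SOX9 sgRNA and 2.41 ± 0.41 with the control sgRNA (SD, n = 3 each), a difference of -0.21 (exact two-sided permutation p = 0.5, 0.667 adjusted over 4 pairs). For CCN2 it was 2.70 ± 1.01, against 3.73 ± 0.52 in controls, a difference of -1.04 (exact permutation p = 0.3, 0.6 adjusted). For YAP1 it was 4.81 ± 0.28, against 4.17 ± 0.56 in controls, a difference of 0.64 (exact permutation p = 0.3, 0.6 adjusted). The AXL pair, with 10 own and 3 opposite counts in all, gave p = 1.0 in the exact test. With 3 libraries against 3 the smallest p is 0.1, so that none of these differences could pass 0.05.

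A second ratio, chosen after the values were seen, set the counts opposite THBS1 and CCN2 against those opposite YAP1 in the same library. The THBS1 ratio was 0.455, 0.551 and 0.557 with the SOX9 sgRNA, against 2.20, 1.55 and 1.91 with the control sgRNA. The CCN2 ratio was 0.142, 0.264 and 0.226 with the SOX9 sgRNA, against 0.831, 0.480 and 0.535 with the control sgRNA. The groups did not overlap for either. The differences in mean log2 ratio were -1.85 and -1.55 (each with an exact permutation p = 0.1, the smallest possible), beside fitted changes of -1.83 and -1.52. The entry opposite YAP1 was picked with its fitted change of -0.01 known. The ratios therefore had to come near the fitted changes, and neither they nor their p-values are separate support.

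**Figure D4:**
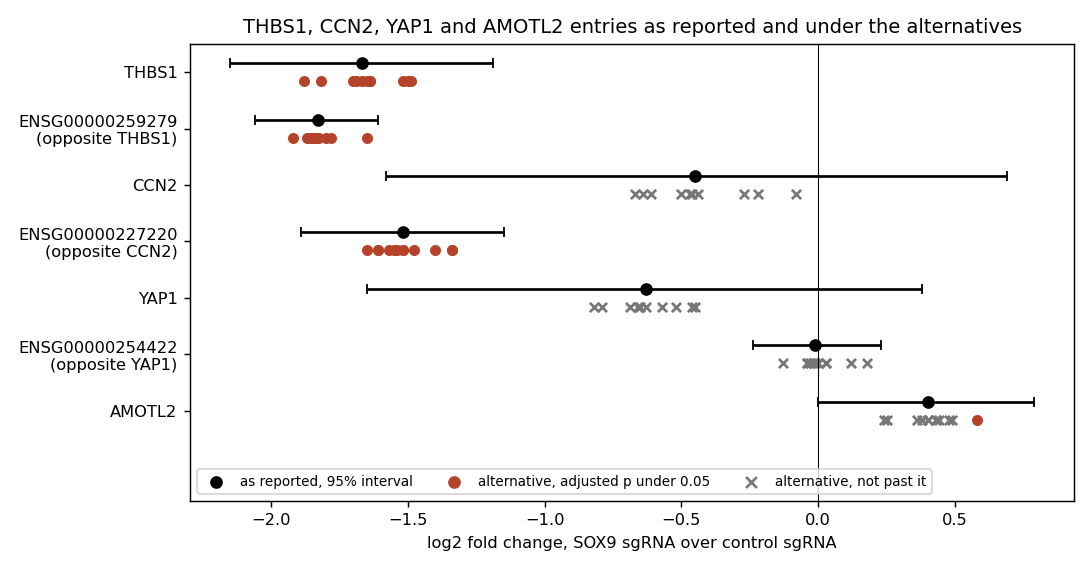
log2 fold change (SOX9 sgRNA over control sgRNA) of the 7 tested entries, with its 95% interval (black), and under each alternative fit (red where the adjusted p was under 0.05, grey crosses elsewhere). THBS1 and the entries opposite THBS1 and CCN2 stay below -1.3 throughout, and AMOTL2 passed the threshold in 1 alternative, library totals, at 0.58.

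Other entries had much the same course over the 6 libraries. Likeness was the root mean square difference between log2 CPM profiles, each centred on its mean, among 2456 entries averaging 6 or more in log2 CPM. The nearest to ENSG00000259279 were VIM (0.148), which encodes the intermediate filament vimentin, SERTAD4-AS1 (0.180), ENSG00000269926, opposite the mTOR inhibitor gene DDIT4 (0.185), ENSG00000254208, opposite E2F5 (0.186), and VIM-AS1, opposite VIM (0.210). VIM had 71.1, 65.0 and 82.7 CPM with the SOX9 sgRNA, against 204, 229.8 and 240.1 CPM with the control sgRNA, in groups that did not overlap. Near entries were chosen for a like profile, so their group differences are no separate result. The nearest to ENSG00000227220 were ENSG00000234477, opposite the keratin gene KRT23 (0.169), ENSG00000254208 (0.219), SERTAD4-AS1 (0.229), VIM-AS1 (0.236) and DTNB-AS1 (0.245). ENSG00000227220 was number 8 for ENSG00000259279, and ENSG00000259279 number 7 for ENSG00000227220, at 0.267. The 3 entries ENSG00000254208, SERTAD4-AS1 and VIM-AS1 stood in both sets.

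Many YAP and TEAD targets had too few counts for a test. In a list of 22 such genes, which includes CCN1, CCN2, ANKRD1, AMOTL2 and AXL, 9 own entries were tested and 0 were past the threshold in either direction by edgeR, with 0 at an unadjusted p under 0.05 and 0 by DESeq2. With 9.01% of all tested entries called, 0 of 9 is near the background and is no result about these targets. Their median log2 fold change was 0.07, against 0.01 over all entries tested. After AMOTL2 the smallest adjusted p-values by edgeR belonged to DOCK5 (-0.71, SE 0.49, adjusted p = 0.438), FOXF2 (-0.59, SE 0.52, adjusted p = 0.583) and ASAP1 (0.49, SE 0.48, adjusted p = 0.627). Among all tested entries opposite a protein-coding gene, 9.02% were lower and 3.69% higher. Of 4 tested entries opposite a list gene, 1 was lower, that opposite CCN2, and 0 higher by edgeR (0 at an unadjusted p under 0.05 and 0 by DESeq2), with a median of -0.17. The others included those opposite CRIM1, a BMP-binding transmembrane protein gene (0.27, edgeR adjusted p = 0.51), and PTPN14, a phosphatase gene that restrains YAP (the keratin pseudogene KRT18P12, whose reads may be shared with its parent gene, -0.40, edgeR adjusted p = 0.588).

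In a list of 24 Hippo pathway kinases, scaffolds, coactivators and TEAD factors, 14 own entries were tested with 0 calls by edgeR, 0 at an unadjusted p under 0.05 and 0 by DESeq2, and a median of 0.28. Beside 9.01% called over all entries tested, 0 of 14 is no result about this list. VGLL4 gave 0.52 (edgeR adjusted p = 0.259), TAOK1, a kinase gene upstream of the pathway, 1.01 (edgeR adjusted p = 0.359) and WWTR1 -0.74 (edgeR adjusted p = 0.412). All tested entries opposite a protein-coding gene were lower in 9.02% and higher in 3.69%. Of 8 tested opposite entries in this list 1 was lower, near that share, and 0 higher by edgeR (0 higher at an unadjusted p under 0.05 and 0 by DESeq2). The lower one, opposite VGLL4, whose product competes with YAP for TEAD, is the autophagy gene ATG7 itself. It had 5015 counts and shares 1596 exon bases with VGLL4. Whether its counts come from ATG7 or VGLL4 cannot be told apart here and was not tested. The ATG7 entry stood at 880 ± 43.5 CPM with the SOX9 sgRNA and 1211 ± 103 CPM with the control sgRNA (-0.46, SE 0.080, edgeR adjusted p = 1.30e-05). Opposite AMOTL1, a relative of AMOTL2, the value was 0.68 (edgeR adjusted p = 0.312), and opposite TAOK1 it was -0.30 (edgeR adjusted p = 0.685). WWTR1-AS1, opposite the coactivator gene WWTR1, had 611 ± 50.1 CPM, against 635 ± 99.8 CPM in controls (-0.06, SE 0.096, edgeR adjusted p = 0.806). The entry opposite TEAD2, the gene CD37 itself, gave -0.04 (edgeR adjusted p = 0.907).

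Among 20 matricellular genes, 7 own entries were tested, with 1 lower and 1 higher (6.02% and 2.99% over all entries tested), and a median of -0.45. THBS1 was the lower one. FBLN5, which encodes the elastic fibre protein fibulin 5, had 27.8 ± 3.34 CPM with the SOX9 sgRNA and 10.4 ± 4.89 CPM with the control sgRNA (1.41, SE 0.44, edgeR adjusted p = 0.0294). This call was lost with DESeq2 (adjusted p = 0.0554), with no filter on low counts and without each library but control library 1. TNC, which encodes tenascin C, had 29.2 ± 9.30 CPM, against 53.4 ± 4.69 CPM in controls (-0.87, SE 0.30, edgeR adjusted p = 0.0557). The shares over all tested entries opposite a protein-coding gene were 9.02% lower and 3.69% higher. Of 3 tested opposite entries in this list 2 were lower, those opposite THBS1 and CCN2, and 0 higher by edgeR (0 at an unadjusted p under 0.05 and 0 by DESeq2). The third was THBS3-AS1, opposite another thrombospondin gene, with 332 ± 16.6 CPM, against 304 ± 6.03 CPM in controls (0.13, SE 0.11, edgeR adjusted p = 0.594). The own entry of THBS3 gave 0.52 (SE 0.27, edgeR adjusted p = 0.269) and THBS2 gave 0.40 (SE 0.40, edgeR adjusted p = 0.643).

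Of 21 receptors and partners of these proteins, 5 own entries were tested with 0 calls by edgeR, 0 at an unadjusted p under 0.05 and 0 by DESeq2. With 9.01% called over all entries tested, 0 of 5 is no result about them. ITGA6 gave -0.50 (edgeR adjusted p = 0.691), the syndecan gene SDC1 -0.32 (edgeR adjusted p = 0.778), TGFB1 -0.03 (edgeR adjusted p = 0.921) and TGFBR1 0.05 (edgeR adjusted p = 0.977). Entries opposite any protein-coding gene were lower in 9.02% and higher in 3.69% of those tested. Of 4 tested opposite entries in this list 1 was lower and 0 higher by edgeR (1 higher at an unadjusted p under 0.05 and 0 by DESeq2). ENSG00000226963, opposite the integrin alpha 6 gene ITGA6, a laminin receptor subunit that also binds CCN proteins, had 50.8 ± 10.7 CPM with the SOX9 sgRNA and 105 ± 10.3 CPM with the control sgRNA (-1.05, SE 0.23, edgeR adjusted p = 5.49e-04). GAS6-AS1, opposite the AXL ligand gene GAS6, had 130 ± 11.8 CPM, against 130 ± 36.4 CPM in controls (edgeR adjusted p = 0.994). The entry opposite ITGAV, the alpha subunit of the vitronectin receptor, gave 0.50 (SE 0.20, edgeR adjusted p = 0.105), and that opposite TGFB1, the gene HNRNPUL1 itself, 0.28 (edgeR adjusted p = 0.626).

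**Figure D5:**
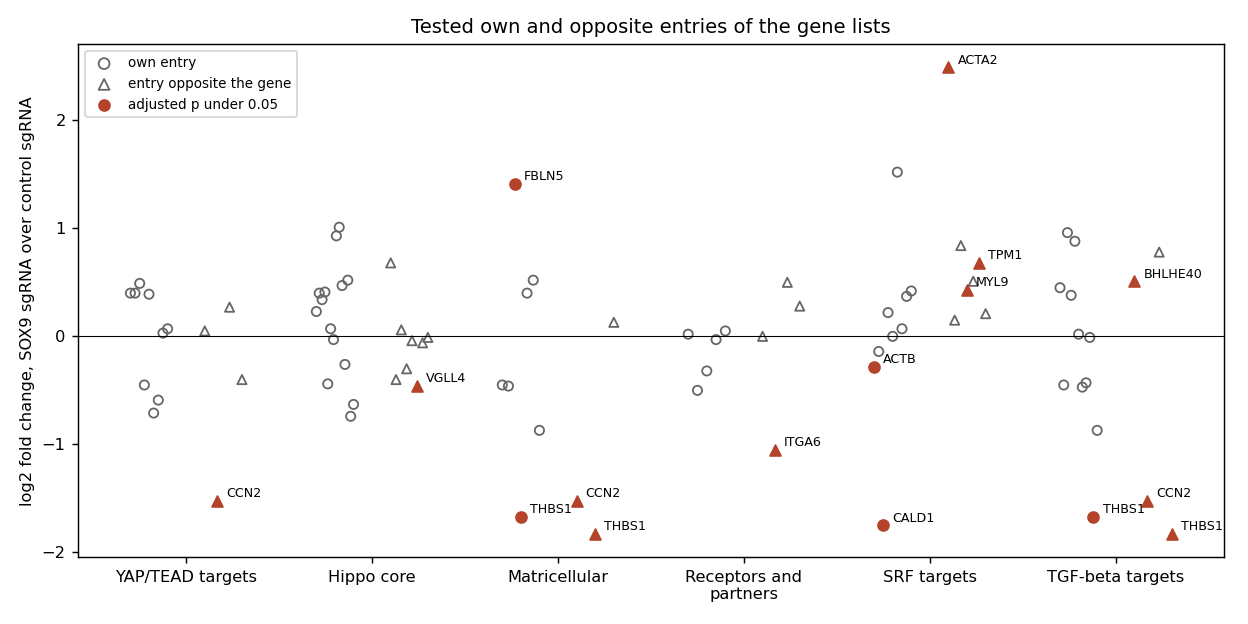
log2 fold change (SOX9 sgRNA over control sgRNA) of tested own entries (circles) and opposite entries (triangles) of 6 gene lists, filled red where the adjusted p was under 0.05 and then labelled with the list gene, also for the entry opposite it, with 1 SRF target not drawn. In the YAP/TEAD list only the entry opposite CCN2 (-1.52) is past the threshold, and in the matricellular list THBS1 (-1.67), the entries opposite THBS1 (-1.83) and CCN2 (-1.52), and FBLN5 (1.41).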

How the data were processed

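The authors deposited 1 table of raw counts per library, whole numbers of fragments per gene for 57209 identifiers. Per the file headers, featureCounts 1.6.2 counted paired fragments over exons of Ensembl GRCh37 release 75, with strand setting 1 and overlapping genes each receiving a shared fragment. STAR 2.7.10a aligned the reads, per the submitters' processing notes. Libraries were made with a SMARTer stranded Pico Input total RNA kit, per the labels' protocols. Total counts ran from 776125 to 1018854 per library, which limits the precision of entries with few counts.

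The test was edgeR 4.0.16 in R 4.3.3 (filterByExpr defaults, TMM factors, robust quasi-likelihood fit, Benjamini-Hochberg over 7959 entries, threshold 0.05), without a replicate block. Fold changes have the SOX9 sgRNA group on top, and 95% intervals are normal intervals from the SE. CPM is relative to totals over tested entries, scaled by TMM factors. Exon overlap on the other strand came from bedtools 2.31.1, with the largest overlap kept for list genes. A name table gave symbols for 51452 entries, and GENCODE release 29 the biotypes. Log2 ratios added 0.5 counts. Counting intervals are exact conditional binomial intervals. Alternatives were library totals, relative log expression factors, DESeq2 1.42.0, no filter, at least 20 counts in 3 libraries, a replicate block, each library left out, and own and opposite entries summed. The procedure was tested on simulated data. Replicate numbers do not pair the libraries. The 123 entries of 6 gene lists, the members and the naming rule (all members, up to 4 genes per list and strand with the smallest adjusted p, and the 5 nearest profiles of 2 entries) were chosen with earlier results of these data known. Some list genes are not reported here by name. Other list genes named with values were chosen after these were seen.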

Additional observations from a re-analysis of the deposited data

How the results depend on the processing

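Among 404 values recomputed under alternatives, 352 kept their direction and their side of the threshold or stayed within their spread, 25 lost a call (those of ACTB, CALD1, FBLN5 and BHLHE40-AS1), 2 gained one, 25 counts moved and 0 reversed. The calls of THBS1, ENSG00000259279 and ENSG00000227220 held in all 12 fits, and those of the 4 other tested entries were absent in all but 1. Library totals gave AMOTL2 0.58, so that 1 member was higher. The 1 higher entry in each of the YAP/TEAD and Hippo lists was AMOTL2 again. Summing own and opposite entries gave CCN2 -1.42, since the opposite entry adds most counts. With library totals 1 entry of the receptor list was higher, 2 of the SRF list lower and 5 higher, and 2 of the TGF-beta list higher. In the matricellular list 0 were higher with DESeq2, no filter or the stricter filter. In the TGF-beta list 0 were higher with no filter and 2 with the stricter filter. With a library left out, the number higher ran from 0 to 1 in the matricellular, receptor and TGF-beta lists, and the number lower from 2 to 3 in the SRF list and from 3 to 4 in the matricellular and TGF-beta lists. Without a filter 4 of the matricellular list were lower, against 3. For lists the cause was not tested. The stricter filter left no own CCN2 or YAP1 entry, and DESeq2 gave no adjusted p for CCN2, whose own counts limit what this depth can show. Library totals moved the median of the 7959 tested entries to 0.19, against 0.01. Over the 27856 entries without a filter the median was 0.12 with DESeq2 and 0.10 with edgeR.

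The replicate numbers do not pair the groups: the same-numbered libraries' deviations from their group means correlated by -0.00287, 0.0193 and -0.0109, and libraries 2 of both groups correlated best with their own number while the other 4 did not. With the replicate number as a block, ENSG00000259279 gave -1.84, ENSG00000227220 -1.52 and THBS1 -1.65, CCN2 -0.46, AMOTL2 0.40, YAP1 -0.65 and ENSG00000254422 0.00, with 3 members lower and 0 higher. The block ended the call of CALD1 (-1.70) and no other call of a named gene.

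The log2 ratio of opposite to own entries, as a difference between groups, ran from -0.44 to 0.02 for THBS1, -1.58 to -0.58 for CCN2 and 0.46 to 0.96 for YAP1 with a library left out.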

Other observations

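Serum response factor (SRF), which binds actin-regulated coactivators of the MRTF family, shares targets with YAP. In a list of 20 SRF targets, calls ran in both directions, as they did over all entries tested (6.02% lower and 2.99% higher). No test of a list was made. Of 10 own entries tested 3 were lower and 0 higher by edgeR (1 higher at an unadjusted p under 0.05 and 0 by DESeq2), with a median of 0.04. Of 8 opposite entries 1 was lower and 3 higher, with a median of 0.47, beside 9.02% and 3.69% of all tested entries opposite a protein-coding gene. ACTA2-AS1, opposite the smooth muscle actin gene ACTA2, had 41.1 ± 4.89 CPM, against 7.09 ± 2.56 CPM in controls (2.49, SE 0.42, edgeR adjusted p = 8.20e-06). The entries opposite the tropomyosin gene TPM1 (0.68, SE 0.15, edgeR adjusted p = 0.00108) and the myosin light chain gene MYL9 (0.43, SE 0.095, edgeR adjusted p = 7.23e-04) were higher too. ACTB, beta-actin, gave -0.28 (SE 0.079, edgeR adjusted p = 0.0132) and -0.09 without a call under library totals, its call ending also without control library 1 or 2 or SOX9 sgRNA library 3, and CALD1 gave -1.75 (SE 0.59, edgeR adjusted p = 0.0461), with no call when any single library was left out, under library totals, without a filter or with the block. The own TPM1 entry gave 1.52 (SE 0.56, edgeR adjusted p = 0.0788).

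In a list of 16 TGF-beta targets, which also holds THBS1 and CCN2, 1 of 11 own entries was lower, THBS1, and 0 were higher by edgeR (2 at an unadjusted p under 0.05 and 0 by DESeq2). That is near the shares over all entries tested, 6.02% lower and 2.99% higher. Among all tested entries opposite a protein-coding gene the shares were 9.02% and 3.69%. The fibronectin gene FN1 gave 0.96 (edgeR adjusted p = 0.0708) and ID3 0.88 (edgeR adjusted p = 0.141). Of 4 opposite entries 2 were lower, those opposite THBS1 and CCN2, and 1 higher, BHLHE40-AS1 opposite the transcription factor gene BHLHE40, with 188 ± 10.3 CPM with the SOX9 sgRNA and 133 ± 22.9 CPM with the control sgRNA (0.51, SE 0.16, edgeR adjusted p = 0.0280). The fourth, opposite LTBP2, gave 0.78 (edgeR adjusted p = 0.151). The BHLHE40 overlap is 4 bases, and the call was lost with no filter and without control library 2 or 3 or SOX9 sgRNA library 1 or 3.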
